A study of Mus musculus with 6 samples.

Results

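Fibroblast growth factor (FGF) genes were described in neural progenitor cells (NPCs) of mouse embryos with and without a null mutation of Ybx1, a cold-shock domain protein. The set was chosen by gene symbol and holds the FGFs, their tyrosine kinase receptors, the Sprouty and Spred inhibitors, the feedback genes Dusp6 and Il17rd, and the ETS transcription factors Etv1, Etv4 and Etv5. It matched 37 of the 51733 genes in the count tables. RNA was taken from E13.5 mouse embryos on C57BL/6, from NPCs that carried a Sox2-eGFP reporter (strain B6;129S1-Sox2tm1Hoch/J) and were sorted for it from the neural tube. The 3 control libraries came from embryos with the genotype wildtype, and the 3 Ybx1-KO libraries came from embryos with the genotype YBX1KO, which are homozygous for the germline null allele Ybx1tm1Ley. The deletion is therefore not limited to neural cells, and exencephaly is frequent in these embryos. The comparison asks how gene expression differs between NPCs of Ybx1-KO and control embryos.

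FGFs are secreted proteins that bind tyrosine kinase receptors together with heparan sulfate. In the developing neural tube they act as signals from patterning centers such as the anterior neural ridge and the isthmus, and they keep progenitors dividing. Receptor signaling runs through the Frs adapters and Ras to the kinases ERK1 and ERK2, and ERK activity raises transcription of its own inhibitors and of ETS factors. Etv4, Etv5, Spry and Dusp6 mRNA levels are for that reason widely used as readouts of FGF activity. A separate branch, Fgf11 to Fgf14, is not secreted and acts inside neurons, mainly on sodium channels.

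The libraries differed in depth and in composition. They held 20841990 to 23883542 counts on genes in the controls and 4743279 to 13321952 in Ybx1-KO. Ybx1-KO 3 stood apart, with 7.22% of its read pairs on genes against 18% to 24.7% in the other libraries. Its olfactory, vomeronasal and taste receptor genes, 1729 genes that are silent in this tissue, had a pooled FPKM of 0.529, against 0.0042 to 0.0181 elsewhere. Ybx1 itself was at 235, 523 and 301 TMM-normalized CPM (CPM on library sizes scaled by the trimmed mean of M-values) in controls 1 to 3 and at 124, 54.5 and 9.51 in Ybx1-KO 1 to 3, so every Ybx1-KO library was below every control. Its log2 fold change was -2.49 ± 0.675 (SE) with an adjusted p of 0.302 by edgeR, which is not a call, and Ybx1-KO 1 kept the most Ybx1 mRNA of the Ybx1-KO libraries. The labelled cell type was checked with its markers. Summed FPKM of 8 progenitor genes, Sox2 among them, was 567 to 859 in controls and 426 to 912 in Ybx1-KO, and Sox2 was at 17.2 to 49.8 TMM-normalized CPM in all 6 libraries. Fabp7 was the largest part of each sum, at 715, 369 and 705 FPKM in controls and 674, 163 and 299 in Ybx1-KO. Its log2 fold change was -0.656 ± 0.566 (SE). Of the 8 genes, 6 had positive log2 fold changes and 4 of these an unadjusted p below 0.05. The median over the list was 0.643, with no call. Over all 21330 tested genes, 13069 log2 fold changes were positive and the median was 0.31. At an unadjusted p below 0.05, 6.96% of all tested genes were higher in Ybx1-KO. Nes, at 52.6 to 129 TMM-normalized CPM in controls and 165 to 283 in Ybx1-KO, and Hes5, at 20.2 to 29.8 and 40.9 to 70, were above every control in every Ybx1-KO library. For Hes5 the study reports the other direction, lower in Ybx1-KO NPCs by its RNA-seq and by RT-qPCR of brain NPCs. The regional make-up was not equal. Summed FPKM of 9 Hox genes of hindbrain and spinal cord was 22.8, 186 and 64.5 in controls and 255, 224 and 94.9 in Ybx1-KO, with control 2 above Ybx1-KO 3, and 9 of 9 had a positive log2 fold change with 0 called. In such bulk samples, fewer cells of a type and less RNA per cell cannot be told apart. The labels do not say that each library is a separate embryo, so p-values measure the spread between these libraries. Controls 1 and 2 share a number in their titles, as do Ybx1-KO 1 and 2, which the labels do not explain.

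No FGF gene passed the test. Of the 37 genes, 23 reached a group mean of more than 1 FPKM and were tested, and 14 did not. With edgeR (quasi-likelihood fit over 21330 genes, p-values adjusted by the Benjamini-Hochberg method), 0 of the 23 were called at an adjusted p below 0.05 with a fold change above 1.5, where 0% of all tested genes were called. The lowest adjusted p among them was 0.444. DESeq2 called 214 genes and limma-voom called 0, and neither called an FGF gene. With voom at these thresholds the study reports genes both higher and lower in Ybx1-KO, which limma-voom did not give here. The cause of this gap was not tested. At an unadjusted p below 0.05, 1 of 23 was higher in Ybx1-KO (Fgfr3), against 6.96% of all tested genes, and 0 of 23 were lower, against 4.27%. DESeq2 had 3 FGF genes under that limit (Fgf5, Fgf12, Fgfr3), with 13.2% of all genes under it, and limma-voom had 1 (Fgf5), with 7.76%.

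The individual libraries were compared next. In 3 of 23 genes (13%) every Ybx1-KO library was above every control, against 4.99% of all tested genes. These were Fgf5, Fgf17 and Fgfr3. In 3 of 23 (13%) every Ybx1-KO library was below every control, against 8.17%, and these were Fgf12, Fgf14 and Fgfr2. The filter bears on these counts. Of the 23 genes, 17 passed it in both groups, 4 through Ybx1-KO alone (Fgf5, Fgf17, Fgf22, Etv4) and 2 through controls alone (Fgf9, Fgf12), and a gene that passed through its higher group had to differ. Fgfr3, Fgfr2 and Fgf14 passed in both groups. Which genes separate depended in part on the scaling. Fgf5, Fgf17 and Fgf12 separated under every alternative run, Fgfr3 overlapped without a filter on low values, Fgfr2 overlapped under total-count scaling, under RLE size factors and with the FPKM filter on TMM sizes, and Fgf14 overlapped under total-count scaling and with the CPM filter. An exact permutation test of 3 against 3 libraries cannot go below p = 0.1.

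The fitted differences had no common direction. The log2 fold change (Ybx1-KO over control) was positive in 11 and negative in 12 of the 23, with a median of -0.0281 against 0.31 over all tested genes. The median over all genes followed Ybx1-KO 3 and the scaling. It was -0.0663 without that library, where the FGF genes had a median of 0.0907, and 0.509 under total-count scaling. Fgf5, Fgf17, Fgf22, Etv4, Fgf9 and Fgf12 passed the filter through 1 group alone, which bears on their signs. Among genes that passed in both groups, the plot of fitted differences by role shows both signs for receptors and inhibitors. Fgf18, Etv1 and Etv5, which also passed in both, have negative values there. All 4 intracellular factors are negative, Fgf12 among them.

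**Figure D1:**
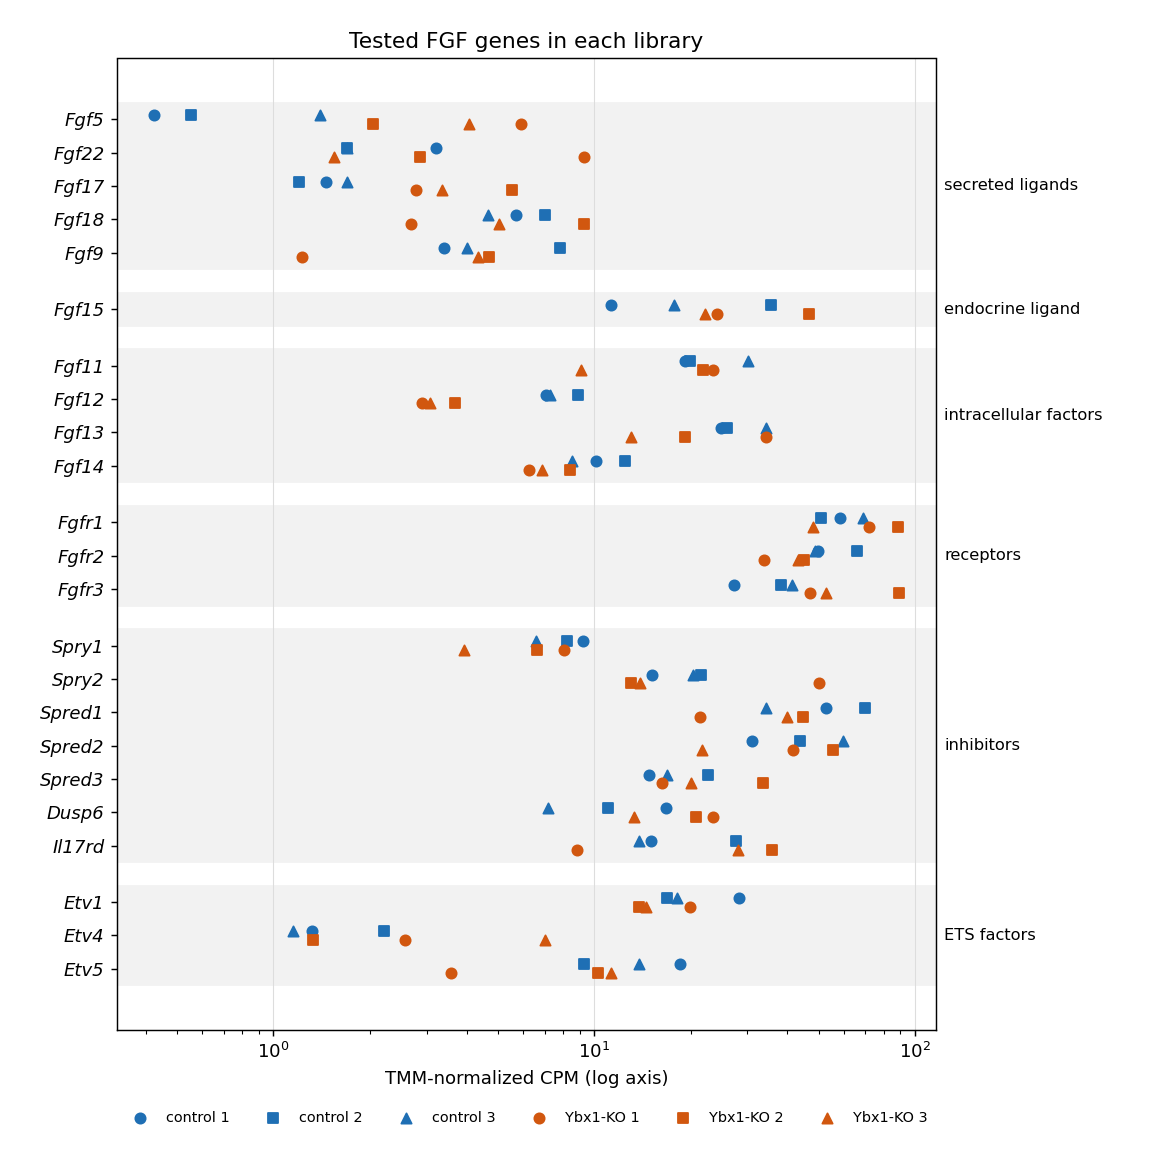
TMM-normalized CPM (log axis) of the 23 tested FGF genes, 1 row a gene, grouped by role, with blue symbols for the 3 controls and orange symbols for the 3 Ybx1-KO libraries. Blue and orange symbols are apart in Fgf5, Fgf17, Fgf12, Fgf14, Fgfr2 and Fgfr3 and overlap in the other 17 genes.

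**Figure D2:**
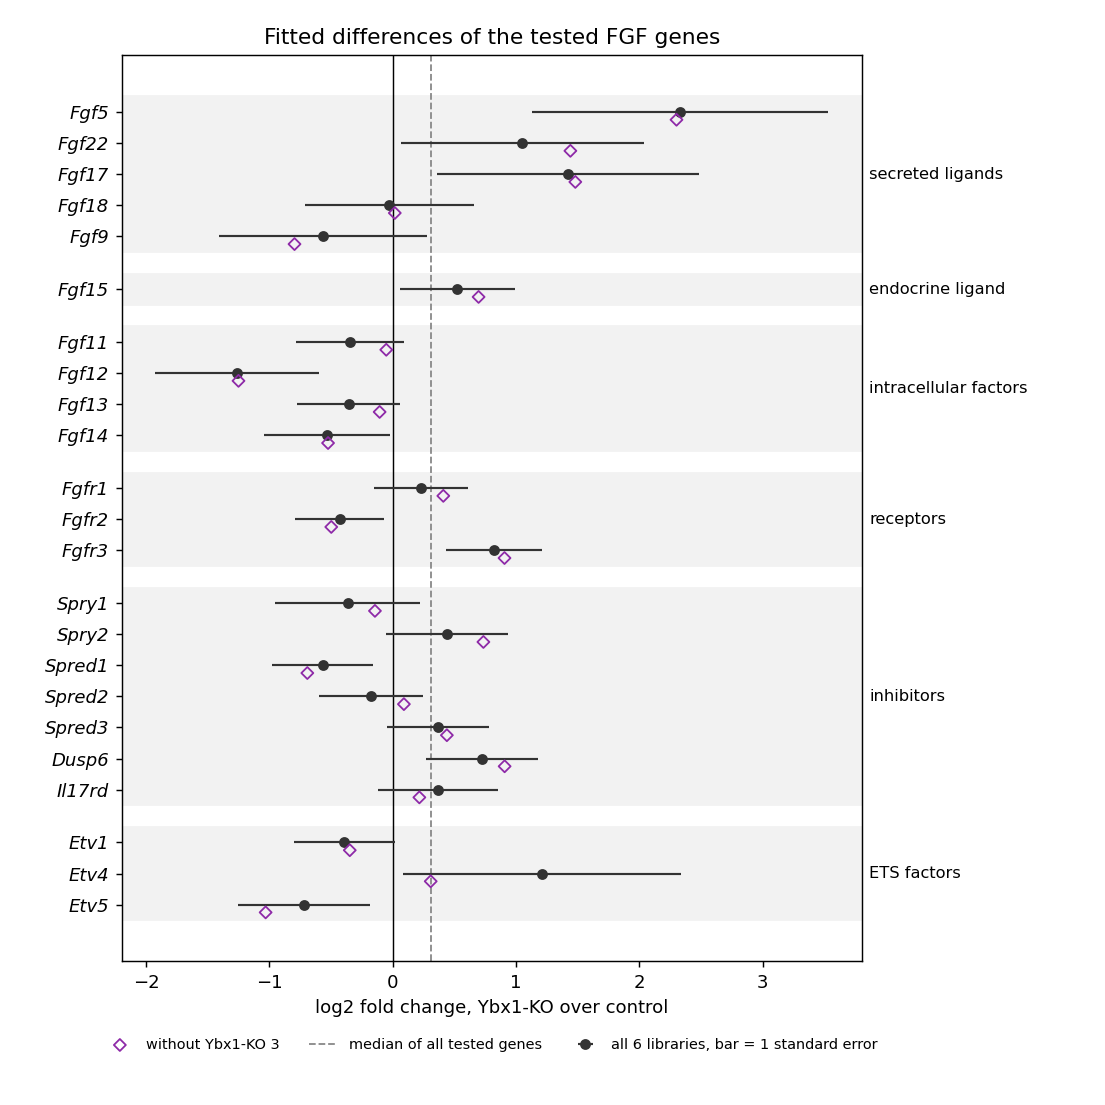
Log2 fold change of Ybx1-KO over control for the same genes, with filled points for all 6 libraries, bars of 1 standard error, and open diamonds for the fit without Ybx1-KO 3. The dashed line is the median of all tested genes, 0.31. Points lie on both sides of 0, and of the 23 only Fgf18 and Spred2 change sign without Ybx1-KO 3.

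The secreted ligands were mostly at low levels. Of 15 ligands that act locally, 5 were tested. Fgf5, Fgf17 and Fgf22 passed the filter through Ybx1-KO alone and Fgf9 through controls alone, so their directions as a group are set by the filter and are not summarized. Fgf18 was the highest of the 15 per length in controls, at 4.88 ± 0.992 FPKM (SD, n = 3), and the other 4 tested ligands had control means of 0.317 to 1.09 FPKM. Summed FPKM of all 15 was 12.3, 11.4 and 9.47 in controls and 11.3, 17.2 and 15.6 in Ybx1-KO, with overlap between the groups.

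Fgf5, a ligand best known as a brake on hair growth, was at 0.425, 0.553 and 1.4 TMM-normalized CPM in controls and at 5.92, 2.04 and 4.06 in Ybx1-KO. The groups were separate, and the smallest Ybx1-KO value exceeded the largest control value. These levels rest on 9 to 28 counts per control library and 20 to 53 per Ybx1-KO library. In Ybx1-KO 3 Fgf5 was at 1.62 FPKM, beside 0.529 FPKM of the silent receptor genes. The log2 fold change was 2.33 ± 1.2 (SE) with an adjusted p of 0.45 by edgeR. It ranged from 1.92 to 3.01 when each library was left out in turn. Fgf5 passed the filter through Ybx1-KO alone, and the same filter was kept in these fits. Its separation and sign are therefore no support for a difference.

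Fgf17, which is made with Fgf8 at the isthmus and in the anterior forebrain, was at 1.46, 1.2 and 1.7 TMM-normalized CPM in controls and at 2.79, 5.52 and 3.36 in Ybx1-KO. Again no Ybx1-KO library fell into the control range, but Fgf17 too passed the filter through Ybx1-KO alone. In Ybx1-KO 3 Fgf17 was at 1.99 FPKM, beside 0.529 FPKM of the silent receptor genes. The fit gave a log2 fold change of 1.42 ± 1.06 (SE), with an adjusted p of 0.535 by edgeR. Of 7 marker genes of midbrain and isthmus, 6 had positive log2 fold changes, 0 were called and 1 (Wnt1) separated the groups. Their summed FPKM was 28.8, 62.6 and 25.3 in controls and 61.1, 72.3 and 31.2 in Ybx1-KO, so control 2 was above Ybx1-KO 1 and 3. Wnt1, the signal on the midbrain side of the isthmus, was at 1.61, 1.84 and 0 TMM-normalized CPM in controls and at 7.59, 25.8 and 6.44 in Ybx1-KO. Of all 21330 tested genes, 13069 had positive log2 fold changes. The part of the midbrain and isthmus genes in the Fgf17 values was not tested.

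Fgf18, of the same subfamily, was at 5.71, 7 and 4.65 TMM-normalized CPM in controls and at 2.68, 9.3 and 5.04 in Ybx1-KO. The Ybx1-KO values lay on both sides of the controls, and the log2 fold change of -0.0281 ± 0.685 (SE) had the opposite sign under RLE and total-count scaling, by DESeq2 and in other alternatives. Fgf8, the founding isthmus and forebrain ridge signal that the study names for these cells, had 1, 6 and 11 counts in controls 1 to 3 and 3, 10 and 4 in Ybx1-KO 1 to 3. As TMM-normalized CPM these were 0.0472, 0.276 and 0.55 against 0.335, 1.02 and 0.56. The groups overlapped, 2 of the 6 libraries were at or under 3 counts, and the gene was too low to be tested. Summed over groups, the control rate was 0.436 of the Ybx1-KO rate, with an exact 95% interval of 0.212 to 0.9 for counting error only. With no filter on low values, edgeR gave Fgf8 a log2 fold change of 0.988 ± 2.43 (SE) and an adjusted p of 0.893. These counts thus do not settle a direction. The study reports Fgf8 lower in Ybx1-KO NPCs by its RNA-seq and by RT-qPCR of brain NPCs.

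Fgf22, which organizes presynaptic terminals, was at 3.21, 1.7 and 1.7 TMM-normalized CPM in controls and at 9.27, 2.86 and 1.54 in Ybx1-KO. Ybx1-KO 1 alone was above the controls, and without it the log2 fold change went from 1.05 ± 0.986 (SE) to -0.03. Fgf9, a ligand made by neurons and progenitors, was at 3.4, 7.79 and 4 in controls and at 1.23, 4.7 and 4.34 in Ybx1-KO, with a log2 fold change of -0.57 ± 0.845 (SE). Here Ybx1-KO 1 was the lowest library and the other two lay within the control range.

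The remaining 10 local ligands were below the filter, and their counts are shown gene by gene in the plot of low genes. Fgf3, a ligand of hindbrain and inner ear induction, had 37, 13 and 21 counts in controls and 2, 0 and 1 in Ybx1-KO. It was the only low FGF gene whose groups did not overlap, with 1.75, 0.599 and 1.05 TMM-normalized CPM in controls and 0.223, 0 and 0.14 in Ybx1-KO. With no filter on low values, 7.9% of all genes had groups that did not overlap. Summed over libraries this was 71 counts against 3, a control rate 9.75 times that in Ybx1-KO with an exact 95% interval of 3.2 to 48.4 for counting error only. With no filter on low values, edgeR gave Fgf3 a log2 fold change of -3.27 ± 2.4 (SE) and an adjusted p of 0.577, so the difference was not larger than the spread the fit allowed. All 3 Ybx1-KO libraries were under the 3 counts taken as the floor, which is 0.307 to 0.42 TMM-normalized CPM in those libraries.

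Fgf7 and Fgf10 are typical ligands of mesenchyme. Fgf7 had 67, 20 and 5 counts in controls and 0, 1 and 5 in Ybx1-KO, and control 1 held most of them. Fgf10 had 91, 61 and 38 counts in controls and 0, 21 and 37 in Ybx1-KO. Summed FPKM of 8 mesenchymal markers was 121, 21.5 and 32.5 in controls and 18.9, 20.1 and 11.4 in Ybx1-KO, highest in control 1, and 8 of 8 had negative log2 fold changes. Of all 21330 tested genes, 8261 had negative ones. The part of mesenchymal cells in the Fgf7 and Fgf10 counts was not tested.

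The low genes were often highest in Ybx1-KO 3, in 8 of 14 genes by TMM-normalized CPM. Fgf1, a ligand of all FGF receptors, had 32, 5 and 26 counts in controls and 0, 1 and 68 in Ybx1-KO. Fgf6 had 7 counts over the 3 controls and 1, 3 and 28 in Ybx1-KO. In Ybx1-KO 3 Fgf1 and Fgf6 reached 1.74 and 0.841 FPKM, beside the 0.529 FPKM of silent receptor genes in that library. Fgf2, the mitogen used to culture NPCs, had 176, 59 and 58 counts in controls and 19, 23 and 44 in Ybx1-KO. Fgf20 had 1, 13 and 11 counts against 0, 21 and 4. Fgf4 and Fgf16 had at most 8 and 2 counts in any library.

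**Figure D3:**
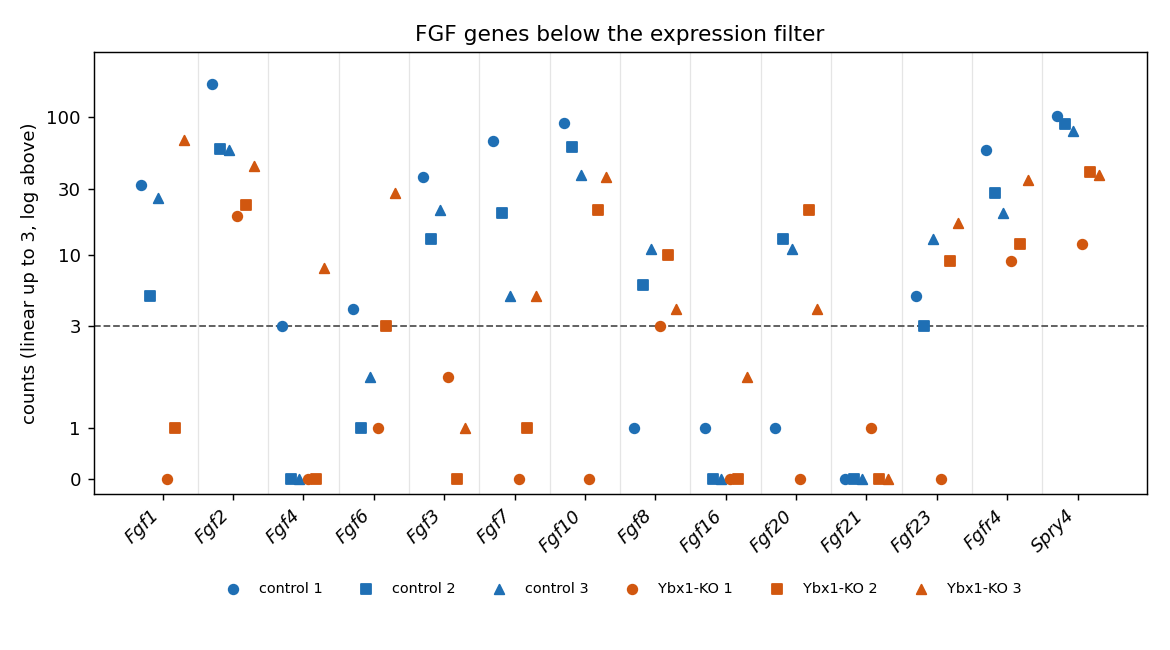
Counts in each library (linear up to 3, log above) of the 14 FGF genes below the expression filter, with the floor of 3 counts as a dashed line. Control libraries are deeper, so equal counts mean a higher rate in Ybx1-KO. Fgf3 is above the line in 3 controls and under it in 3 Ybx1-KO libraries, and Fgf1, Fgf4 and Fgf6 are highest in Ybx1-KO 3.

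Of the 3 endocrine FGFs, which need a Klotho co-receptor in adult tissues, 1 was tested. Fgf15, the mouse counterpart of human FGF19 and a gene of the embryonic neural tube, was at 11.3, 35.6 and 17.7 TMM-normalized CPM in controls and at 24.1, 46.7 and 22.1 in Ybx1-KO. Each Ybx1-KO library was above controls 1 and 3, but control 2 was above Ybx1-KO 1 and 3. Control 2 is the control with the highest Hox gene sum. The log2 fold change was 0.52 ± 0.464 (SE) and went to 1.09 without control 2, where its unadjusted p was below 0.05 but it was not called. The antisense gene Gm26793 shares 24.9% of the Fgf15 exon bases, and its counts were 31 to 39 in controls and 15 to 46 in Ybx1-KO. Fgf21 had 1 count in all 6 libraries. Fgf23 had 5, 3 and 13 counts in controls and 0, 9 and 17 in Ybx1-KO.

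The receptors separated in opposite directions. Fgfr3, expressed in ventricular zone progenitors and later in astrocytes, was at 27.2, 38.1 and 41.3 TMM-normalized CPM in controls and at 47.1, 88.9 and 52.6 in Ybx1-KO, with every Ybx1-KO library above every control. The fitted difference was 1.77-fold, a log2 fold change of 0.82 ± 0.389 (SE) with a 95% interval of 0.000597 to 1.64. Its adjusted p was 0.444 by edgeR, and leaving out each library moved the log2 value between 0.49 and 0.97. Fgfr3 lies on chromosome 5 at 33721674 to 33737068 (GRCm38, plus strand). G630022F23Rik on the other strand shares 13.9% of its exon bases and had 8 to 68 counts per library.

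Fgfr2, which binds ligands of mesenchyme or of epithelium depending on its splice form, was at 49.9, 65.8 and 48.6 TMM-normalized CPM in controls and at 33.9, 44.9 and 43.1 in Ybx1-KO. Every Ybx1-KO library was below every control, by a small margin. Fgfr2 had a log2 fold change of -0.43 ± 0.361 (SE) with an adjusted p of 0.574 by edgeR. The gene is on the minus strand of chromosome 7, and its annotated span of 130162451 to 133123350 takes in a transcript that shares 3.04% of the Fgfr2 exon bases with Ctbp2.

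Fgfr1, the main receptor of early neural progenitors, was at 58.2, 50.7 and 68.9 TMM-normalized CPM in controls and at 71.8, 88.7 and 48.1 in Ybx1-KO. Ybx1-KO 1 and 2 were above all controls and Ybx1-KO 3 was below them, with a log2 fold change of 0.23 ± 0.380 (SE). Fgfr4 was below the filter, at 58, 28 and 20 counts in controls and 9, 12 and 35 in Ybx1-KO, and was highest per length in Ybx1-KO 3.

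Levels of the receptors were then compared per length. In controls Fgfr1 was at 6 ± 0.926, Fgfr2 at 5.30 ± 0.926 and Fgfr3 at 4.97 ± 1.03 FPKM (SD, n = 3), which do not differ beyond their spread. In Ybx1-KO the means were 7.04 ± 2.06, 3.93 ± 0.568 and 8.78 ± 3.17 FPKM (SD, n = 3), so Fgfr2 was the lowest of these 3. Shares within a library do not depend on the scaling between libraries. Fgfr3 made up 24.8%, 31% and 32.5% of summed receptor FPKM in controls and 37.8%, 47.6% and 41.3% in Ybx1-KO. The Fgfr3 share was thus higher in each Ybx1-KO library than in any control. Fgfr2 made up 31.6%, 37% and 26.5% in controls and 18.9%, 16.6% and 23.5% in Ybx1-KO, again without overlap. The shares of a library add up to a whole, so the Fgfr2 and Fgfr3 shares are not independent. Fgfr2 levels overlapped under total-count scaling, RLE size factors and the FPKM filter on TMM sizes. The ratio of Fgfr3 to Fgfr2 per length was 0.786, 0.837 and 1.23 in controls and 2, 2.86 and 1.76 in Ybx1-KO. The Fgfr1 share, 29.8% to 39.3% in controls and 27.4% to 41.7% in Ybx1-KO, overlapped. These shares were looked at with the receptor levels known, so no test was run on them. Of the 8 progenitor genes, Nes and Hes5 separated the groups in the same direction as Fgfr3, and no other gene of that list separated them. Fabp7 and Sox2 had negative log2 fold changes, -0.656 and -0.00553. The part of the progenitor genes in the receptor shares was not tested. The Hox and isthmus sums given above overlapped between groups, with control 2 among the Ybx1-KO libraries. Of these genes, 9 of 9 Hox genes and 6 of 7 of midbrain and isthmus had positive log2 fold changes. Positive values were found in 13069 of all 21330 tested genes. The part of regional make-up in the receptor shares was not tested.

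**Figure D4:**
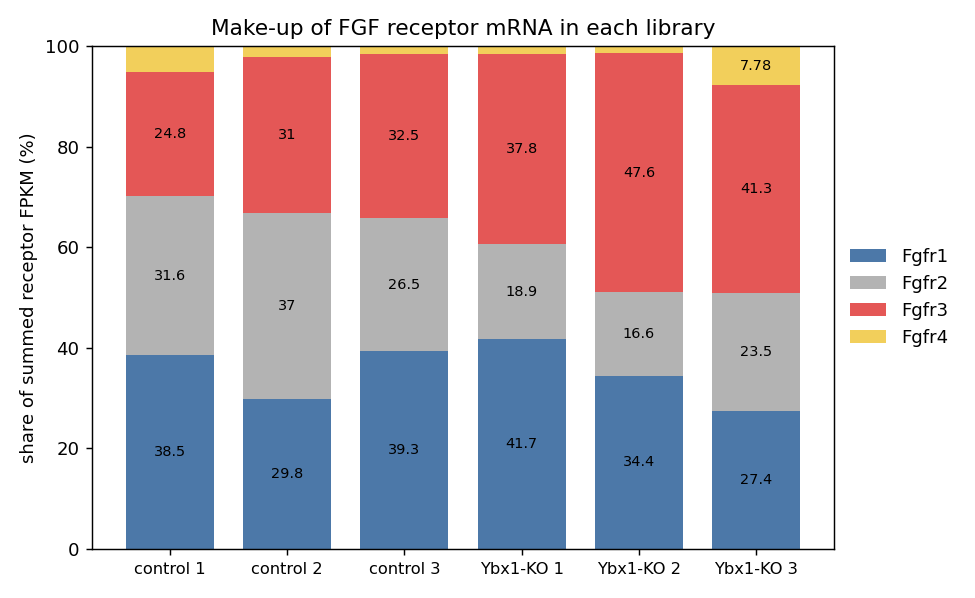
Share of each FGF receptor in the summed receptor FPKM (y axis, %) of each library (x axis), with the value printed in segments above 5.5%. The Fgfr3 segment is 24.8% to 32.5% in the controls and 37.8% to 47.6% in Ybx1-KO, and the Fgfr2 segment is 26.5% to 37% and 16.6% to 23.5%.

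Ybx1 takes its name from binding the Y-box, an inverted CCAAT element in promoters, so the promoters of FGF genes were searched for these letters. RefSeq promoters (GRCm38.p6) were found for 28 of the 37 genes, with 37 start sites, and the 250 bases before each start were read on both strands. The Y-box consensus CTGATTGG was in 0 of 37 windows, against 3.83% of all 32851 windows. The shorter CCAAT, whose reverse complement ATTGG ends that consensus, was in 12 windows (32.4%) of 11 genes, against 33.8% of all. The ETS core CCGGAA was in 3 windows (8.11%), against 12%. The letters were thus about as frequent in FGF promoters as elsewhere for CCAAT, and nothing about binding follows from them. Shown are Fgfr2 and Fgfr3, the receptor pair that separated in opposite directions, and Dusp6, the ERK feedback gene with the largest positive log2 fold change among the inhibitors. Sequences run 5′ to 3′ on the gene's strand, end before the first annotated exon of the gene at that start, and carry in capitals the letters ATTGG, which read as the CCAAT element on the other strand.
Fgfr2, chr7:130266809-130267058, minus strand, 250 bases: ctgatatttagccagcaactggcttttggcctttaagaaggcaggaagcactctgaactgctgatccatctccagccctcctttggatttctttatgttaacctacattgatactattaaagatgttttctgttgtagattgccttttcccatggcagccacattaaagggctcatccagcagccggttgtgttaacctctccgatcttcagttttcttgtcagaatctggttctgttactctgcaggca
Fgfr3, chr5:33721474-33721673, plus strand, 200 bases: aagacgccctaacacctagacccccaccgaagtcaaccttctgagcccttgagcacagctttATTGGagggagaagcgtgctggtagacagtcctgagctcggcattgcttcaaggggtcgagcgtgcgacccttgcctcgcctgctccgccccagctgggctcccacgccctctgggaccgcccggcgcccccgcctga
Dusp6, chr10:99262981-99263230, plus strand, 250 bases: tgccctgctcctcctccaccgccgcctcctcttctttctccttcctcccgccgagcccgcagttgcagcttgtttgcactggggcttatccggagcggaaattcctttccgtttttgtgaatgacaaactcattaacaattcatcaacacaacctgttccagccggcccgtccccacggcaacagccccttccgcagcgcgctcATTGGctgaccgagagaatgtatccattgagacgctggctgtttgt
The Fgfr2 window held no CCAAT and had a GC content of 44%. A second Fgfr3 start in RefSeq, whose window is chr5:33722056-33722305 and is not shown, held no CCAAT. The Fgfr3 and Dusp6 stretches shown each held 1, and their GC contents were 65% and 56.4%. The opposite-strand gene G630022F23Rik shares exon bases with Fgfr3, and its extent over the Fgfr3 stretch is not given here.

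The intracellular factors were all 4 tested. All 4 had negative log2 fold changes, and Fgf12 passed the filter through controls alone. Fgf12, a sodium channel modulator of neurons, was at 7.08, 8.89 and 7.25 TMM-normalized CPM in controls and at 2.9, 3.68 and 3.08 in Ybx1-KO. The groups did not overlap, and the highest Ybx1-KO value was well under the lowest control. The fitted level in controls was 2.4 times the Ybx1-KO level, or a log2 fold change of -1.26 ± 0.665 (SE) with an adjusted p of 0.45 by edgeR. Leaving out each library kept the log2 value between -1.37 and -1.15.

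Fgf14, in which mutations cause ataxia, was at 10.1, 12.5 and 8.5 TMM-normalized CPM in controls and at 6.25, 8.38 and 6.86 in Ybx1-KO. The groups did not overlap, though Ybx1-KO 2 and control 3 were close. Its log2 fold change was -0.53 ± 0.509 (SE).

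Fgf13, which also binds microtubules in migrating neurons, was at 24.9, 25.9 and 34.4 TMM-normalized CPM in controls and at 34.2, 19.2 and 13 in Ybx1-KO. Fgf11 was at 19.2, 19.8 and 30.2 in controls and at 23.4, 21.8 and 9.09 in Ybx1-KO. Both overlapped between groups and were lowest in Ybx1-KO 3. Without that library their log2 fold changes went from -0.36 ± 0.418 and -0.35 ± 0.435 (SE) to -0.106 and -0.0523, while those of Fgf12 and Fgf14 were -1.25 and -0.52. Summed FPKM of 6 neuron markers was 454, 712 and 685 in controls and 774, 592 and 242 in Ybx1-KO, also lowest in Ybx1-KO 3, and 5 of 6 had negative log2 fold changes. Negative values were found in 8261 of all 21330 tested genes. The neuron list did not move as a whole. In Ybx1-KO 1 Tubb3, which carries most of the sum, was at 540 FPKM against 226, 382 and 426 in controls. Snap25, a synaptic protein gene, was at 16.4, 23.8 and 24.5 FPKM in controls and at 7.48, 11.7 and 7.5 in Ybx1-KO, without overlap and in the same direction as Fgf12. The part of neurons in the values of the intracellular factors was not tested.

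The inhibitors did not move together. Of 8, 7 were tested, 4 with positive and 3 with negative log2 fold changes and a median of 0.37, and none separated the groups. Summed FPKM of all 8 was 35, 43.4 and 37 in controls and 50.2, 43.3 and 29.7 in Ybx1-KO. Spred2 and Spry2 had the highest control means of all FGF genes per length, at 9.69 ± 3.08 and 9.09 ± 1.62 FPKM (SD, n = 3).

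Dusp6, the phosphatase that inactivates ERK in the cytoplasm, was at 16.7, 11 and 7.15 TMM-normalized CPM in controls and at 23.4, 20.8 and 13.3 in Ybx1-KO. Ybx1-KO 1 and 2 were above all controls, and Ybx1-KO 3 lay between controls 2 and 1. Dusp6 had a log2 fold change of 0.72 ± 0.455 (SE) with an adjusted p of 0.481 by edgeR. Il17rd (Sef), a membrane antagonist of FGF receptors, was at 15, 27.6 and 13.8 in controls and at 8.82, 35.8 and 28.1 in Ybx1-KO, so that Ybx1-KO held both its lowest and its highest value, with a log2 fold change of 0.37 ± 0.490 (SE).

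Among the Sprouty genes, which block Ras activation downstream of the receptors, Spry2 was at 15.1, 21.5 and 20.3 TMM-normalized CPM in controls and at 50.3, 13 and 13.9 in Ybx1-KO. Ybx1-KO 1 was above every control while Ybx1-KO 2 and 3 were below every control. Its log2 fold change was 0.44 ± 0.496 (SE) and turned to -0.51 without Ybx1-KO 1. Spry1 was at 9.21, 8.2 and 6.6 in controls and at 8.04, 6.64 and 3.92 in Ybx1-KO, with a log2 fold change of -0.37 ± 0.587 (SE), and Gm42922 on the other strand shares 24.4% of its exon bases. Spry4 was below the filter, with 102, 89 and 79 counts in controls and 12, 40 and 38 in Ybx1-KO. Spry4 had an overall control rate 1.24 times that in Ybx1-KO, with an exact 95% interval of 0.97 to 1.59 for counting error only. No Sprouty gene thus had a difference beyond the spread of its libraries.

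The Spred proteins bind neurofibromin and hold Ras inactive at the membrane. Spred1 was at 52.7, 70 and 34.4 TMM-normalized CPM in controls and at 21.3, 44.7 and 39.9 in Ybx1-KO, with a log2 fold change of -0.57 ± 0.409 (SE). Spred2 was at 31, 43.8 and 59.4 in controls and at 41.6, 55.4 and 21.7 in Ybx1-KO, with a log2 fold change of -0.18 ± 0.418 (SE). Spred3 was at 14.8, 22.6 and 16.8 in controls and at 16.3, 33.6 and 20 in Ybx1-KO, with a log2 fold change of 0.37 ± 0.412 (SE). In all 3 the groups overlapped, and the sign of Spred2 turned without Ybx1-KO 3 and without control 3.

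The ETS factors, which act downstream of ERK, also differed from each other, with 1 positive and 2 negative log2 fold changes. The positive one, Etv4, passed the filter through Ybx1-KO alone, which bears on its sign. Etv5 was at 18.5, 9.31 and 13.8 TMM-normalized CPM in controls and at 3.57, 10.3 and 11.3 in Ybx1-KO, with Ybx1-KO 1 far below the other libraries and a log2 fold change of -0.72 ± 0.534 (SE). Etv1 was at 28.2, 16.9 and 18.1 in controls and at 19.8, 13.8 and 14.5 in Ybx1-KO, with a log2 fold change of -0.39 ± 0.408 (SE). Etv4 was at 1.32, 2.21 and 1.15 in controls and at 2.57, 1.33 and 7 in Ybx1-KO, with a log2 fold change of 1.21 ± 1.13 (SE) that went to 0.31 without Ybx1-KO 3. In that library Etv4 was at 2.25 FPKM, beside 0.529 FPKM of the silent receptor genes. In Ybx1-KO 1 the readouts pointed both ways, since Spry2 and Dusp6 were at their highest there and Etv5, Spred1 and Il17rd at their lowest.

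Single libraries held the extremes of many of these genes. Ybx1-KO 1 was the lowest library in 8 and the highest in 4 of the 23 tested genes, Ybx1-KO 2 was the highest in 7 and the lowest in 2, and Ybx1-KO 3 was the lowest in 6 and the highest in 1. Over all tested genes Ybx1-KO 1 was the lowest in 24.9% and the highest in 19%, Ybx1-KO 2 the highest in 12.8% and the lowest in 9.28%, and Ybx1-KO 3 the lowest in 19.6% and the highest in 35.4%.

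Other genes of the pathway were read from 3 lists. At the cell surface, heparan sulfate enzymes, proteoglycans, Flrt proteins and co-receptors, 27 of 31 genes were tested, 0 were called by edgeR (lowest adjusted p = 0.432), and 11 had positive and 16 negative log2 fold changes, with a median of -0.0932. The median over all tested genes was 0.31. At an unadjusted p below 0.05, 2 were higher and 2 were lower in Ybx1-KO, against 6.96% and 4.27% of all tested genes. The higher ones were the proteoglycans Gpc2 and Sdc1, with log2 fold changes of 1.03 ± 0.431 and 0.95 ± 0.391 (SE). The lower ones were Flrt2, a membrane protein that binds FGF receptors, and the sulfotransferase Hs6st2, at -1.25 ± 0.476 and -1.13 ± 0.503 (SE). Flrt2 was at 95.3, 47.5 and 71.5 TMM-normalized CPM in controls and at 41.4, 37.9 and 10.6 in Ybx1-KO, without overlap. In 5 of 27 surface genes (18.5%) every Ybx1-KO library was below every control, against 8.17% of all tested genes. In 0 every Ybx1-KO library was above every control, against 4.99%.

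Among adapters and the Ras to ERK cascade, all 23 genes were tested, 0 were called (lowest adjusted p = 0.432), and 9 had positive and 14 negative log2 fold changes, with a median of -0.189. The adapter Frs3 was the 1 gene with an unadjusted p below 0.05 that was higher, at 1.47 ± 0.576 (SE), and the Ras GTPase activator Rasa1 was the 1 that was lower, at -1.03 ± 0.390 (SE). Rasa1 was at 111, 111 and 63.4 TMM-normalized CPM in controls and at 49, 54.1 and 37.1 in Ybx1-KO, and neither gene overlapped between groups. Frs3 was at 3.54, 4.24 and 6.6 in controls and at 22.7, 7.26 and 10.1 in Ybx1-KO. Of the 23 genes, 4 (17.4%) had every Ybx1-KO library below every control, against 8.17% of all tested genes. Another 1 (4.35%) had every Ybx1-KO library above every control, against 4.99%. At an unadjusted p below 0.05, 6.96% of all tested genes were higher and 4.27% lower.

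Of 25 further ERK response genes, 23 were tested, 0 were called (lowest adjusted p = 0.306), and 11 had positive and 12 negative log2 fold changes. At an unadjusted p below 0.05, 2 were higher and 3 lower, against 6.96% and 4.27% of all tested genes. The immediate-early gene Ier5 was at 72.3, 33.1 and 73.2 TMM-normalized CPM in controls and at 28.9, 12.4 and 17.3 in Ybx1-KO, without overlap. Fos and Egr1, transcription factors that cells switch on within minutes of a stimulus, were highest in control 1. Egr1 was at 856, 219 and 291 in controls and at 176, 265 and 29.7 in Ybx1-KO, and Fos at 111, 20.7 and 23.8 against 11.6, 23.2 and 2.38, so Ybx1-KO 2 lay within or near the range of controls 2 and 3. Dusp9, an ERK phosphatase of the Dusp6 family, was at 1.37, 2.86 and 1.9 in controls and at 4.13, 8.89 and 7.41 in Ybx1-KO, without overlap. The other higher gene, Ccnd1 (cyclin D1), was named after its values were seen, and was at 67.2, 232 and 64.5 in controls and at 323, 288 and 176 in Ybx1-KO, with control 2 inside the Ybx1-KO range. Log2 fold changes were -1.61 ± 0.44 for Ier5, -2.05 ± 0.696 for Fos, -1.54 ± 0.677 for Egr1, 1.73 ± 0.808 for Dusp9 and 1.11 ± 0.524 for Ccnd1 (SE). Every Ybx1-KO library was above every control in 2 of these 23 genes (8.7%), against 4.99% of all tested genes. Every Ybx1-KO library was below every control in 1 (4.35%), against 8.17%. Without control 1 the genes of the 3 lists with an unadjusted p below 0.05 numbered 1 in place of 11. Over all tested genes the share under that limit was 4.87% without control 1 in place of 11.2%.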

How the data were processed

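RNA-seq of 6 libraries was analysed. Total RNA of sorted cells was extracted with DNase I treatment and made into stranded total RNA libraries (TruSeq), read as pairs on Illumina HiSeq instruments. Which library ran on which model, the aligner and the strand setting of counting are not given in the sources used here. Per the labels, the deposited values are raw counts of read pairs per gene, made by the authors with HTSeq 0.6.1p1 on a GENCODE annotation of mm10 or GRCm38.p5. Rows that name no gene were left out of library sizes; __no_feature held 30.6% to 59.5% of pairs. No per-sample column was left unused.

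Lengths and positions came from GENCODE M21. The 21330 genes that reached a group mean of more than 1 FPKM were tested, with FPKM from gene totals for the filter and from TMM-scaled sizes for display. edgeR 4.0.16 (R 4.3.3) quasi-likelihood tests with TMM were run on all of them, p-values were adjusted by the Benjamini-Hochberg method, and a call needed an adjusted p under 0.05 with more than a 1.5-fold change. limma 3.58.1 (voom, the study's own test) and DESeq2 1.42.0 were alternatives, as were other scalings, filters and libraries left out. The common biological coefficient of variation was 0.8. The scripts were tested on simulated data. Replicates differed by more than counting noise (chi-square statistic over its degrees of freedom, 58.9 to 232). The floor was 3 counts per library. The exact intervals of control over Ybx1-KO rates, and the floors, cover counting error only. The interval of the Fgfr3 log2 fold change is from the edgeR fit and also covers the spread between libraries. All FGF genes were named. Of the pathway lists at most 4 genes each with an unadjusted p below 0.05 were named, by smallest p, and Ccnd1 was added after its values were seen. The members and lists were chosen with earlier results of these data known. Marker lists gave, as summed FPKM in controls 1 to 3 and Ybx1-KO 1 to 3, 8.27, 4.14, 4.57, 2.97, 2.78 and 9.9 for endothelium, 1560, 940, 660, 1360, 391 and 225 for erythroid cells, and 7.74, 12.5, 15.5, 23.4, 50.3 and 13.4 for neural crest. A forebrain list is not reported here.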

Additional observations from a re-analysis of the deposited data

How the results depend on the processing

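No FGF gene was called under any of the 14 alternatives. The log2 fold change kept its sign in 18 of 23 tested genes. FGF genes with an unadjusted p below 0.05 numbered 1, and 3 by DESeq2, 0 with no filter on low values, 2 with CPM above 1 in 3 libraries, 2 with the FPKM filter on TMM sizes, 2 with the filter applied again without Ybx1-KO 3, and 0 to 2 when each library was left out. The share of all tested genes under that limit was 11.2% with all libraries and 4.87% to 17.3% when each library was left out. FGF genes whose groups did not overlap numbered 6, and 7 to 11 when each library was left out, with 11 without Ybx1-KO 1. Over all tested genes the share without overlap was 13.2% with all libraries and 16.3% to 26.2% with any 1 left out, so it grew with fewer libraries for all genes. The median log2 fold change of -0.0281 was -0.159 by limma-voom, 0.211 with no filter and 0.0856 with the filter applied again without Ybx1-KO 3, and -0.265 to 0.13 when each library was left out. Fgf18 turned to 0.0496 (DESeq2), 0.0632 (total-count scaling), 0.0489 (RLE size factors), 0.0586 (CPM filter), 0.0278 (FPKM filter on TMM sizes) and 0.0493 (filter applied again without Ybx1-KO 3). Spred2 turned to 0.122 in the last of these. Leaving out each library moved Fgf18 between -0.588 and 0.289, Fgf22 between -0.0295 and 1.44, Il17rd between -0.0285 and 0.754, Spred2 between -0.497 and 0.0907, and Spry2 between -0.513 and 0.761. For the other pathway genes, where the alternatives were chosen after seeing the data, the 11 genes with an unadjusted p below 0.05 became 1 to 12 when each library was left out, with 1 without control 1 and 6 without control 2. Of all tested genes, 4.87% were under that limit without control 1 and 7.12% without control 2. The cause was not tested. Counts below about 10 per library limit Fgf3, Fgf4, Fgf6, Fgf8, Fgf16 and Fgf21. No paired analysis was possible because no label ties a control to a Ybx1-KO library.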
